A study of Mus musculus with 56 samples.

Results

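The homeostatic microglia genes are 9 genes that healthy brain microglia transcribe at a high level: P2ry12, P2ry13, Tmem119, Sall1, Siglech, Gpr34, Fcrls, Olfml3 and Aif1. They were picked by gene symbol, and all 9 were found in each of the 3 deposited count tables, which hold 47971, 45682 and 55385 genes. Translating ribosome affinity purification (TRAP) had been used on barrel cortex, the whisker area of the mouse cortex, at postnatal day 5, with an antibody to a ribosomal protein L10a fused to green fluorescent protein (eGFP). RNA on the tagged ribosomes (bound) and RNA left behind (unbound) were both sequenced, giving 56 libraries in 12 groups. Whiskers on the right side had been cauterised on day 4, and tissue was taken 24 hours later from the deprived and the control cortex.

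The astrocyte line was Aldh1l1::eGFPL10a, in which the Aldh1l1 promoter drives the tag and no tamoxifen was given, with 5 libraries in each of its 4 groups (bound or unbound, deprived or control). The heterozygous microglial line was Cx3cr1CreErt2/+(Litt) Eef1a1LSL.eGFPL10a/+, with 4 libraries in each group from 4 mice. The knockout microglial line was Cx3cr1CreErt2/CreErt2(Litt) Eef1a1LSL.eGFPL10a/+, with 5 libraries in each group from 5 mice. Both microglial lines received 50 µg tamoxifen daily from day 1 to day 3, and in both the recombinase is made from the Cx3cr1 locus, so other cells that use that locus, such as brain border macrophages, can carry the tag. Both sexes entered every group. The titles give 1 deprived and 1 control cortex for each knockout mouse and for heterozygous mice 14 and 15, so the control cortex there is the other hemisphere of a lesioned animal.

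Microglia are the resident macrophages of the brain. Their surveying state depends on brain signals such as TGF-beta and on colony stimulating factor acting through Csf1r, and it is marked by a set of surface receptors that detect nucleotides, lipids and sugars released by neighbouring cells. P2ry12 and P2ry13 are receptors for ADP, and P2ry12 steers microglial processes towards released nucleotides. Gpr34 is a receptor for lysophosphatidylserine, Siglech a lectin of the sialic acid binding family, Fcrls an Fc receptor-like scavenger protein and Tmem119 a membrane protein used to tell microglia from other macrophages. Olfml3 is a secreted olfactomedin-domain protein, Aif1 encodes the actin-binding protein Iba1, the usual histological stain for microglia, and Sall1 is a zinc finger transcription factor that holds the microglial programme in place and is also made in neural progenitors.

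Several features of the libraries bear on the values that follow. In the heterozygous line the titles call both cortices of mouse 17 deprived and both cortices of mouse 21 control (17L, 17R, 21L and 21R, where the letter is the side), whereas the left cortex is titled deprived in mice 14 and 15 and in all 5 knockout mice. Groups were taken from the titles, and the calls among the 9 genes in every comparison that uses heterozygous libraries were also made without 17R and 21L. Each genotype has its own count table and its own labelled molecule, total RNA for the heterozygous and polyA RNA for the knockout line, so genotype, table and preparation cannot be told apart. Totals ran from 10.08 to 28.58 M counts in the astrocyte line and from 32.77 to 56.69 M in the microglial lines. The 9 genes together had 812 to 2138 counts in an astrocyte-line bound library and 2932 to 9333 in a microglial one. Mitochondrial rRNA took 20.5 to 31.1% of the counts in unbound microglial libraries, 3.5 to 6.11% in unbound astrocyte-line libraries and 1.4 to 3.53% in bound libraries. Cx3cr1 itself, the gene carrying the insertion, lay at 10.46 ± 2.38 counts-per-million units (CPM) in heterozygous bound RNA (SD, n = 8) and 0.873 ± 0.254 in knockout bound RNA (SD, n = 10), with no overlap. All 22 other microglia genes examined (Csf1r, C1qa and the like) were enriched on tagged ribosomes in both microglial lines, and all 10 astrocyte markers in the astrocyte line.

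In GRCm38 the genes lie on 6 chromosomes. P2ry13 (3:59207892-59210882) and P2ry12 (3:59216272-59262871) are neighbours on the minus strand of chromosome 3, which also holds Fcrls (3:87250758-87263738) and Olfml3 (3:103722222-103738001). Tmem119 is at 5:113793729-113800516, Sall1 at 8:89027235-89044162, Siglech at 7:55768178-55778925, Gpr34 at X:13632089-13640858 and Aif1 at 17:35170991-35176068. All 9 are annotated as protein coding, and the values are totals per gene. P2ry12 and P2ry13 lie within Med12l and Gpr34 within Cask, each on the opposite strand. P2ry12 shares 9 exonic bases with Med12l, and the other 2 pairs share 0. Since the strand setting of the counting is not given in the sources used here, reads of such pairs cannot be separated where they share bases. Med12l stood at 25.7 to 42.5 CPM and Cask at 314 to 517 CPM on average across lines and fractions.

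RefSeq promoter windows of 300 bases (GRCm38.p6, 250 before and 50 after a transcript start) were matched for 7 of the 9 genes by symbol, with 3 windows for Sall1. They are shown because most of the genes moved together, though Tmem119, Sall1 and Siglech did so less closely. A further reason is that PU.1, the ETS-family factor of macrophages, binds a purine-rich motif. The 8-letter form GAGGAAGT, searched on both strands, was in none of the genes' windows and in 3.2% of all 32851 windows. Its last 7 letters, AGGAAGT, of which every longer match is also a match, were found in a window of 3 of the 7 genes. Counted by window this was 3 of their 9 windows, against 9.35% of all windows. The capitals mark that match, which reads on the minus strand of the window for Fcrls and so appears reversed and complemented there.
P2ry12, chr3:59262936-59263235, minus strand: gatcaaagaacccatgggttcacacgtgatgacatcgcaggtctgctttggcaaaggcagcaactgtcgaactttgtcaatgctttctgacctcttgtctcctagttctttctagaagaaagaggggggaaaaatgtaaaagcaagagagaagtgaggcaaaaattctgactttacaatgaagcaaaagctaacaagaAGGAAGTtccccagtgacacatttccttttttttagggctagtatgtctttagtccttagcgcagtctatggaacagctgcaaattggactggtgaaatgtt
Fcrls, chr3:87263475-87263774, minus strand: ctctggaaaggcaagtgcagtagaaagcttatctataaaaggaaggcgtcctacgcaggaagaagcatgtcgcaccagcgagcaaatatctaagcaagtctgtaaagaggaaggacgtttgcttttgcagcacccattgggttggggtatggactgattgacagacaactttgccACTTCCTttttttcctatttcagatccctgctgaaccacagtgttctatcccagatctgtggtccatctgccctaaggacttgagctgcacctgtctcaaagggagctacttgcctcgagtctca
Sall1, chr8:89042813-89043112, minus strand: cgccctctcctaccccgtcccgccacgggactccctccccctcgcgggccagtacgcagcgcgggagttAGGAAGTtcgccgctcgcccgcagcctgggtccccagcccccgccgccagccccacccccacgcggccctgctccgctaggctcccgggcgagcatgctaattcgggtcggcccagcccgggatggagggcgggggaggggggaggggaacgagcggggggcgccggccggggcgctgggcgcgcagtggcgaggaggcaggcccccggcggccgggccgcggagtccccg
The match starts at base 199 of the P2ry12 window, base 176 of the Fcrls window and base 70 of this Sall1 window, counted from the 5′ end. TATAAA was in the Fcrls window alone among the 7 genes, at base 34, against 13.6% of all windows. Of the other microglia genes, 15 had a window, and AGGAAGT was in a window of 5 of these. The Sall1 window shown holds 79.7% G and C, and those of P2ry12 and Fcrls 42.3% and 48%.

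Mean levels of the receptors, the secreted factor and Aif1 were low in astrocyte-line bound RNA and higher in microglial bound RNA, least so for Siglech, whereas Sall1 was high in bound RNA of all 3 lines. All levels in the next sentences are mean CPM on normalised library sizes, with the SD over the 10 astrocyte-line, 8 heterozygous and 10 knockout libraries of a fraction. P2ry12 stood at 3.14 ± 0.90 in astrocyte-line bound RNA, 18.6 ± 4.93 in heterozygous and 15.4 ± 7.29 in knockout bound RNA. Aif1, the gene for Iba1, stood at 0.674 ± 0.189, 35.7 ± 14.5 and 26.1 ± 10.9. Sall1 stood at 45.2 ± 5.58, 54.8 ± 5.31 and 43.8 ± 7.56, so that its 3 ranges overlapped. Fcrls reached 20.4 ± 4.65 and 18.7 ± 6.83 in the microglial lines, and Gpr34 10.6 ± 2.72 and 7.46 ± 3.75. Before gene length is taken into account, the lowest mean CPM of the 9 in microglial bound RNA were those of Siglech, at 4.33 ± 3.13 and 3.30 ± 1.55, and Tmem119, at 5.27 ± 1.54 and 4.16 ± 2.19. Siglech had 1.704 ± 0.515 in astrocyte-line bound RNA, and its ranges overlapped between the lines, the lowest heterozygous library holding 0.405. Tmem119 had the lowest mean CPM in the astrocyte line, at 0.461 ± 0.277 in bound RNA, where 2 of the 5 deprived libraries held 0 counts. Levels of separately prepared lines were set side by side only and were not tested. In tissue of this kind fewer cells of a type and less RNA per cell cannot be told apart.

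Per kilobase of exon, which allows genes to be compared, the order of mean levels in bound RNA was the same in the 2 microglial lines. In the heterozygous line it ran from Aif1, at 23.3 CPM per kilobase, through Sall1 (10.4), Fcrls (8.75), P2ry12 (7.32), Gpr34 (5.05), P2ry13 (3.48), Tmem119 (2.28) and Olfml3 (1.71) to Siglech (1.28). Only the first step, from Aif1 to Sall1, separated neighbours whose ranges over the 8 libraries did not overlap. In the knockout line the corresponding means ran from 17 for Aif1 to 0.974 for Siglech, and the ranges of all neighbours overlapped. Astrocyte-line bound RNA was led by Sall1 at 8.59 CPM per kilobase, with no overlap with the next gene, Fcrls, at 1.45. In astrocyte-line unbound RNA Sall1 and P2ry12 were level at 3.28 CPM per kilobase each, and Sall1 was the higher in 4 of 10 libraries.

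**Figure D1:**
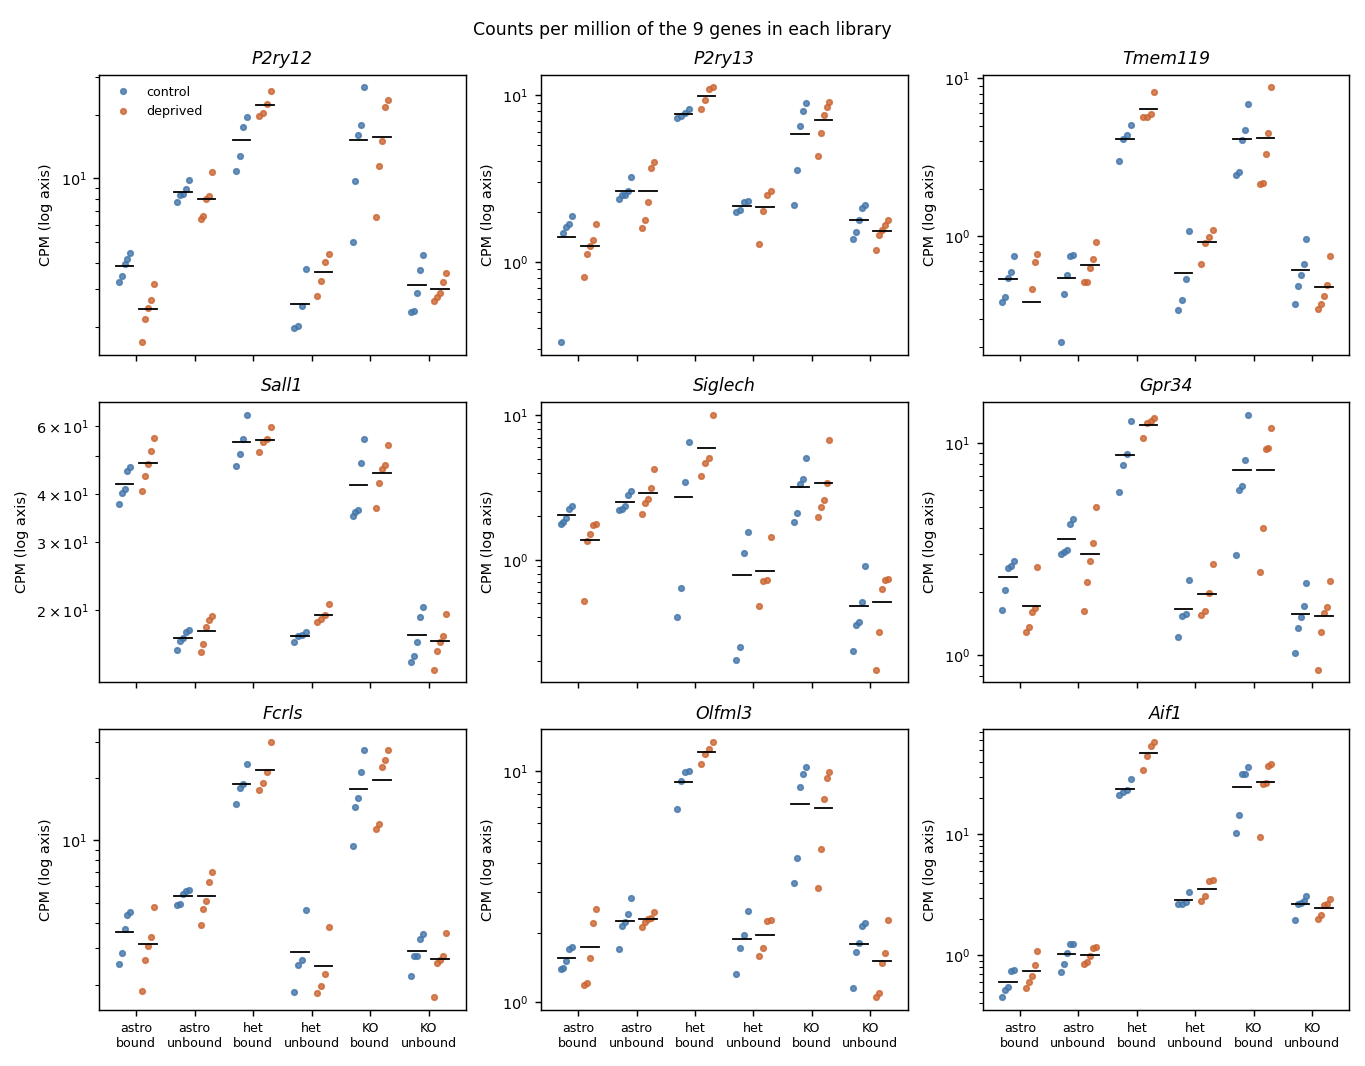
CPM (log axis, its range set for each gene) of the 9 genes in each of the 56 libraries, by line (astro, astrocyte; het, Cx3cr1-heterozygous; KO, Cx3cr1-knockout) and fraction, with control libraries in blue, deprived in orange and a bar at the group mean. Group means of bound RNA stand above those of unbound RNA in both microglial lines for every gene, and those of Sall1 do so in the astrocyte line too; the 2 astrocyte-line libraries with 0 Tmem119 counts enter the mean but cannot be drawn on a log axis.

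Enrichment on tagged ribosomes was asked for in each line as bound against unbound RNA, averaged over deprived and control cortex, with edgeR's quasi-likelihood test and Benjamini-Hochberg adjustment over all genes tested. In both microglial lines all 9 genes were higher in bound RNA, a call that 31.8% of the 19275 genes tested in the heterozygous line received, and 31.6% of the 19681 tested in the knockout line. The bound library exceeded the unbound library of the same piece of cortex for every gene in 8 of 8 heterozygous and 10 of 10 knockout pieces. The highest enrichment was that of Aif1, with a heterozygous log2 fold of 3.38 ± 0.12 (SE, edgeR adjusted p = 2.4e-15) and a knockout value of 3.33 ± 0.24 (edgeR adjusted p = 2.2e-11). Sall1 had the lowest, at 1.57 ± 0.06 and 1.35 ± 0.09.

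The surface receptors lay between these ends. P2ry12 had a log2 fold of 2.56 ± 0.15 (SE) with the heterozygous allele and 2.30 ± 0.25 with the knockout, and its neighbour P2ry13 had 2.01 ± 0.12 and 1.94 ± 0.21. Gpr34 had 2.51 ± 0.16 and 2.23 ± 0.27, and Fcrls, the scavenger receptor-like gene, 2.901 ± 0.18 and 2.72 ± 0.19. Tmem119 had 2.78 ± 0.19 and 2.92 ± 0.28. The error was largest for Siglech in the heterozygous line, at 2.26 ± 0.47, against 2.69 ± 0.29 in the knockout line. The secreted Olfml3 had 2.41 ± 0.12 and 2.09 ± 0.24. The median of the 9 was 2.51 and 2.30, with a median over all genes tested of -0.01 in both lines. Every one of these calls was made again in each fit that left out 1 library and, in the heterozygous line, without 17R and 21L.

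Genes with related roles were enriched less evenly. Among 8 genes of purine sensing outside the set, 7 were higher in heterozygous bound RNA, of which P2ry6, a receptor for UDP, had a log2 fold of 2.98 and P2rx7, an ATP-gated channel, 1.27. The ectonucleotidase gene Entpd1 had 0.59 and the adenosine receptor gene Adora3 2.78. In the knockout line 6 of the 8 were higher. Relatives of Sall1 and Siglech gave 6 enriched genes of 6 tested in each microglial line, among them the sialic acid binding lectins Cd33, at 2.47 in the heterozygous line, and Siglec1, at 2.46. Sall3, a relative of Sall1, had 1.21 in the heterozygous line. The tag transcript, counted in the heterozygous table as a gene of its own, had 3.10 ± 0.14. Without 17R and 21L, 6 of the 8 purine-sensing genes and 5 of the 6 relatives were called higher in the heterozygous line.

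The astrocyte line showed the opposite for most of the set. There 7 of the 9 genes were lower in bound than in unbound RNA, a call that 27.6% of the 18324 genes tested received, and 1 was higher, against 31.5% of genes. P2ry12 was the most depleted, with 8.34 ± 1.31 CPM in unbound and 3.14 ± 0.90 in bound RNA (SD, n = 10 each). Its log2 fold was -1.47 ± 0.11 (edgeR adjusted p = 5.7e-12), and the bound library was the lower of the pair in 10 of 10 pieces, at 0.212 to 0.531 times the unbound one. Pieces of this line were matched by title and number, since its labels name no mouse or side. P2ry13 followed with -1.03 ± 0.22 (edgeR adjusted p = 0.00019), again in 10 of 10 pieces. The log2 fold was -0.74 for Gpr34, -0.71 for Siglech, -0.67 for Fcrls, -0.60 for Aif1 (edgeR adjusted p = 0.011) and -0.49 for Olfml3. Tmem119, with its few counts, had -0.38 ± 0.37 (edgeR adjusted p = 0.39). The call for Aif1 was lost when genes of low count were kept in the test (edgeR adjusted p = 0.05048), and no call was lost by leaving out 1 library.

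Depletion was not uniform among microglial genes. Of the 20 other microglia genes tested in the astrocyte line, 12 were lower in bound RNA, such as Ly86 at -1.24, Ctss, a cathepsin, at -1.01, Cx3cr1 at -0.89 and Csf1r at -0.53. Among the 20, 2 were higher, of which Laptm5, a lysosomal membrane protein gene, had 0.85. P2rx7 at 0.74, the ADP receptor gene P2ry1 at 0.49 and P2rx4 at 0.34 were the 3 purine-sensing genes called, all higher in bound RNA.

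Sall1 stood apart from the other 8 in the astrocyte line. It had 17.3 ± 1.27 CPM in unbound and 45.2 ± 5.58 in bound RNA (SD, n = 10 each), a log2 fold of 1.38 ± 0.06 (edgeR adjusted p = 1.5e-17). The bound library was the higher one in 10 of 10 pieces, at 2.10 to 3.42 times the unbound one. The median ratio of a piece was 2.62 in this line, 2.89 in the heterozygous one and 2.67 in the Cx3cr1 knockout. The 10 astrocyte markers had a median log2 fold of 1.09 in the same fit. Of the relatives of Sall1 and Siglech, 3 were tested in this line and 2 of them were higher in bound RNA. These were 2 zinc finger genes of the Sall family, Sall3 at 1.43 ± 0.06, close to Sall1, and Sall2 at 0.31.

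**Figure D2:**
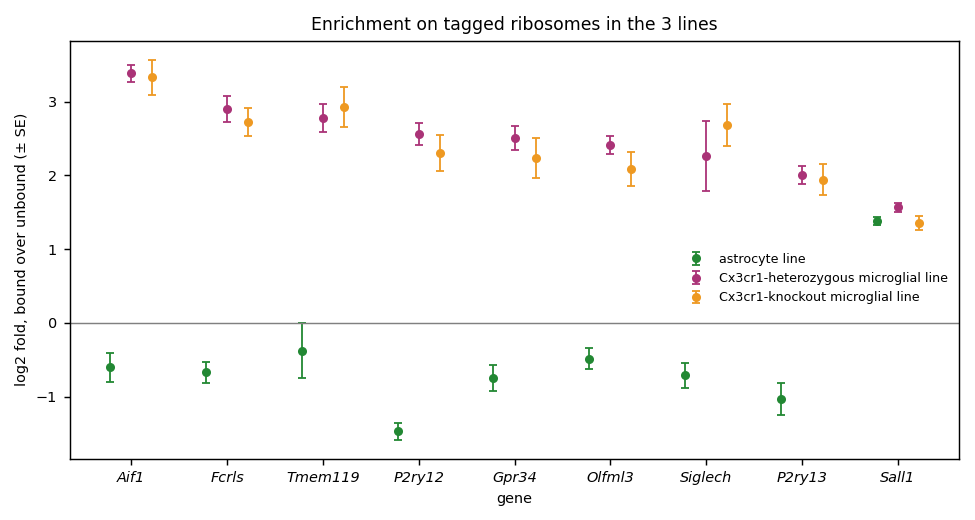
Log2 fold of bound over unbound RNA with its SE for the 9 genes in the astrocyte (green), Cx3cr1-heterozygous (purple) and Cx3cr1-knockout (orange) lines, averaged over deprived and control cortex. All microglial values lie at 1.35 or above and 8 of the 9 astrocyte-line values lie below 0, while the 3 Sall1 values lie between 1.35 and 1.57.

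Whisker deprivation in the heterozygous microglial line was the one comparison in which genes of the set changed. In bound RNA, grouped by title, Aif1, Tmem119 and P2ry12 were higher in deprived cortex, 3 of 9 genes against 5.52% of the 18001 genes tested that were higher. All 9 differences were above 0, with a median log2 fold of 0.46 and a median over all genes of 0.01. The calls for Tmem119 and P2ry12 did not survive most other settings, and that for Aif1 was lost when groups were set by the side of the cortex.

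Aif1 was measured at 23.3 CPM in 14R, 28.7 in 15R, 21.1 in 21L and 22.5 in 21R, the libraries titled control. It was measured at 34.4 in 14L, 44.2 in 15L, 58.1 in 17L and 53.4 in 17R, the libraries titled deprived. Both cortices of mouse 17 were the highest of all and both cortices of mouse 21 the lowest, and the groups did not overlap. The log2 fold was 0.98 ± 0.15 (SE, edgeR adjusted p = 0.0020), and it ranged from 0.87 to 1.11 with 1 library left out, called in 8 of 8 such fits. Without 17R and 21L it was 0.86 and still called. In mice 14 and 15 alone, with mouse as a block, it was 0.56 ± 0.11 (edgeR adjusted p = 0.0060), a fit that rests on 2 mice and on the spread shared across genes. With left cortex set against right in all 4 mice it was 0.29 ± 0.31 (edgeR adjusted p = 0.93).

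Tmem119, the microglial membrane marker, had 2.99 CPM in 14R, 5.09 in 15R, 4.38 in 21L and 4.15 in 21R, against 5.71 in 14L, 5.96 in 15L, 8.18 in 17L and 5.72 in 17R. Its log2 fold was 0.61 ± 0.18 (SE, edgeR adjusted p = 0.041). P2ry12, the ADP receptor, had 19.4 CPM in 14R, 17.5 in 15R, 10.9 in 21L and 12.7 in 21R, against 26.0 in 14L, 20.3 in 15L, 22.5 in 17L and 19.8 in 17R. Its log2 fold was 0.54 ± 0.16 (SE, edgeR adjusted p = 0.049). Neither gene's groups overlapped, but for P2ry12 the highest control and the lowest deprived library were close, and mouse 21 held its 2 lowest values. Without mouse 21 its log2 fold was 0.24 (edgeR adjusted p = 0.38), and that of Tmem119 was 0.64 (edgeR adjusted p = 0.16). Without 17R and 21L the adjusted p of the edgeR test was 0.12 for P2ry12 and 0.089 for Tmem119. With 1 library left out, P2ry12 was called in 2 of 8 fits and Tmem119 in 1 of 8.

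The other 6 genes did not pass. Olfml3 had a log2 fold of 0.42 ± 0.13 (SE, edgeR adjusted p = 0.055), Gpr34 0.46 ± 0.18 (0.13), P2ry13 0.35 ± 0.12 (0.077) and Fcrls 0.21 ± 0.16 (0.44). Sall1 was level, at 0.01 ± 0.09, and its sign turned under several other settings. Siglech had the highest fold and the widest error, 1.10 ± 0.60 (edgeR adjusted p = 0.27), with 0.405 to 6.47 CPM in control and 3.81 to 10.1 in deprived libraries. Ranges of deprived and control libraries did not overlap for 5 genes, P2ry12, P2ry13, Tmem119, Olfml3 and Aif1, all higher in deprived cortex, as were 9.22% of all genes tested by that measure. Without library 14R, 5 genes of the set were called, P2ry12, Siglech, Gpr34, Olfml3 and Aif1. That fit called 1152 of 18435 genes higher, against 993 of 18001 with all libraries. Without any 1 of 15L, 17L, 17R, 21L and 21R, only Aif1 of the set was called, and 546 to 779 of all genes were higher. With title number as a block, 4 genes were called, Siglech joining the first 3, in a fit that called 2202 of all genes. That number pairs 17L with 21L and 17R with 21R, so these blocks join different mice.

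**Figure D3:**
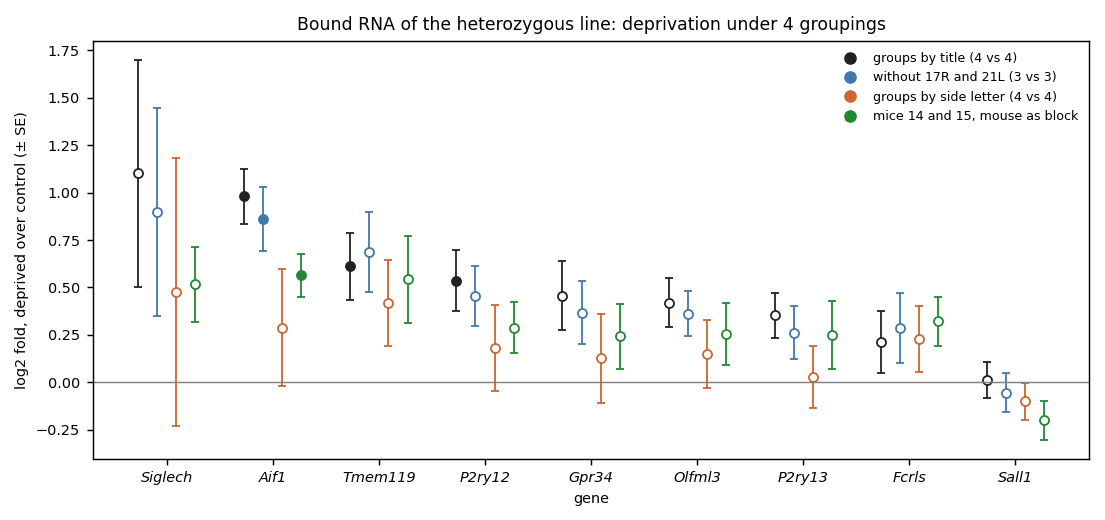
Log2 fold of deprived over control cortex with its SE for the 9 genes in bound RNA of the heterozygous line under 4 groupings of the libraries, filled where the edgeR adjusted p was under 0.05. Aif1 is filled in 3 of the 4 groupings and lies at 0.29 when groups follow the side of the cortex, and Sall1 lies at or below 0.01 in all 4.

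Other myeloid genes moved in the same libraries. Of the 22 other microglia genes, 11 were called higher in deprived bound RNA and none lower, with a median log2 fold of 0.51. They included Irf8 at 0.62, a transcription factor of macrophages, Csf1r at 0.54, C1qb at 0.59 and Ctss at 0.66, and the summed level of the 22 ran from 399 to 542 CPM in control and 622 to 734 CPM in deprived libraries. The tag transcript rose by 0.53 ± 0.14 (SE, edgeR adjusted p = 0.028), from 5.08 to 7.69 CPM in control to 8.17 to 9.43 CPM in deprived libraries. Markers of border macrophages rose too: 5 of 8 tested were called higher, among them Mrc1 at 0.92, Ms4a7 at 1.31, F13a1 at 1.32 and Pf4 at 1.73. The sum of all 10 of these markers lay at 15.1 to 52 CPM in control and 73.6 to 96.3 CPM in deprived bound RNA. Of 12 genes of activated microglia 1 was called higher, of 6 monocyte genes tested 2 were higher and 1 lower, and of 10 astrocyte markers 4 were higher. Over all genes tested 5.52% were called higher. Sums in control and deprived libraries were 208.7 to 300 and 301.3 to 345.3 CPM for activated microglia genes. They were 625.9 to 714.4 and 727 to 798.5 CPM for astrocyte markers, and 202.3 to 291.4 and 149 to 203.4 CPM for monocyte genes. Of 10 neuron markers 1 was called higher and 2 lower, and their sum lay at 4883 to 5315 CPM in control and 4506 to 4685 CPM in deprived bound libraries. Of 10 markers of the oligodendrocyte lineage 2 were called lower, and their sum lay at 191.5 to 220.4 CPM in control and 173.2 to 189.1 CPM in deprived libraries. The part of these other cell types in the rise of the microglia genes was not tested. Of the related lists, P2rx7 at 0.51, P2rx4 at 0.66, Siglec1 at 1.11 and Cd33 at 0.52 were called higher. These counts rest on the titles too. Without 17R and 21L, 4 of the 22 other microglia genes, 2 of the 8 border macrophage markers and 2 of the 10 astrocyte markers were called higher, and the median of the 22 was 0.40. By side of the cortex none of any of these lists was called, with a median of 0.13 for the 22. The tag transcript had 0.42 (edgeR adjusted p = 0.15) without 17R and 21L and 0.097 (edgeR adjusted p = 0.97) by side.

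The other microglia genes rose in the same libraries. Set against their mean within each library, the deprivation difference shrank for P2ry12, Tmem119, Gpr34 and Olfml3. Those of P2ry13 and Fcrls turned from above to below 0. The difference of this log2 ratio, deprived minus control, was 0.09 for P2ry12, 0.14 for Tmem119, 0.03 for Gpr34, -0.04 for Olfml3, -0.13 for P2ry13 and -0.27 for Fcrls, with overlapping groups for each. Aif1 kept 0.48, with groups that overlapped, and 0.41 against the tag transcript, with groups that did not. Sall1 itself was level in CPM while both references rose. Its difference was -0.46 against the other microglia genes and -0.53 against the tag transcript, and its groups overlapped in neither. Siglech had 1.33, with overlapping groups. These ratios are descriptions and were not tested.

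In unbound RNA of the heterozygous line none of the 9 genes passed the edgeR test, and 2 had an unadjusted p under 0.05. DESeq2 called none of them either, nor did edgeR without 17R and 21L. There 2.7% of the 18073 genes tested were higher in deprived cortex and 1.05% lower. Sall1 had 16.5 to 17.5 CPM in control and 18.6 to 20.7 CPM in deprived libraries, so its groups did not overlap, as in 4.87% of genes with deprived higher, and its log2 fold was 0.22 ± 0.07 (SE, edgeR adjusted p = 0.11). P2ry12 had 0.54 ± 0.22 (edgeR adjusted p = 0.20) and was called in 1 fit, the one without library 14R. That fit called 839 of 18379 genes higher. Aif1 had 0.35 ± 0.17 (edgeR adjusted p = 0.29), with 2.66 to 3.33 CPM in control and 2.84 to 4.21 CPM in deprived libraries. Border macrophage markers summed to 2.98 to 12.1 CPM in control and 14.7 to 21.9 CPM in deprived unbound RNA. Sums of astrocyte markers (747.6 to 849.5 against 890.8 to 1012) and activated microglia genes (162.5 to 201 against 231.9 to 276.8) also lay higher. Those of neuron markers lay lower, at 8954 to 10130 against 8220 to 8693. Sums of the 22 other microglia genes overlapped, at 112.8 to 137.7 against 125.5 to 128.4. The part of these cell types here was not tested.

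Whether deprivation acted differently on bound and unbound RNA was tested as the difference of the 2 effects. For Aif1 that difference was 0.67 ± 0.23 (SE, edgeR adjusted p = 0.31) on the log2 scale. Bound and unbound libraries come from the same piece of cortex, and with piece as a block it was 0.66 ± 0.14 and was called (edgeR adjusted p = 0.028). In fits without that block it was 0.29 by side of the cortex and 0.65 without 17R and 21L, with no call in either. These fits cannot show whether the call with the block holds, since the main fit, also without a block, made none. None of the 9 genes was called in that main fit, in which 0% of 19275 genes were, and 1 had an unadjusted p under 0.05.

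In the Cx3cr1-knockout line no gene of the set changed with deprivation. By edgeR 0.00546% of the 18324 genes tested in bound RNA and 0.038% of the 18421 in unbound RNA were called, and none of the 9 had an unadjusted p under 0.05. DESeq2 also called none of the 9. Log2 folds in bound RNA ran from -0.06 for Olfml3 to 0.28 for P2ry13, with errors of 0.13 (Sall1) to 0.40 (Gpr34). In unbound RNA they ran from -0.38 for Tmem119 to 0.09 for Siglech. P2ry12 lay at 4.99, 9.71, 16, 17.9 and 26.9 CPM in control and 6.59, 11.4, 15.1, 21.7 and 23.4 CPM in deprived bound libraries. Aif1 lay at 10.3, 14.6, 31.4, 31.9 and 35.8 CPM in control and 9.54, 25.9, 26.6, 36.5 and 38.2 CPM in deprived bound libraries. The groups covered the same span for both genes.

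Mice differed, and so did the 2 cortices of some mice. The mean of both cortices ran from 9.93 CPM in mouse 7 to 35.05 CPM in mouse 19 for Aif1. For P2ry12 it ran from 5.79 to 19.84 CPM in the same mice, while the cortices of mouse 18 alone held 11.4 and 26.9 CPM. Both bound libraries of mouse 7 were low in the microglia genes, with P2ry12 at 4.99 and 6.59 CPM and Aif1 at 10.3 and 9.54 CPM, while its unbound libraries held 2.77 and 2.88 CPM of P2ry12, within the range of the other mice. In mouse 18, 8 of the 9 genes were lower in the deprived left cortex, such as P2ry12 at 11.4 against 26.9 CPM and Gpr34 at 4.01 against 13.7 CPM, and Sall1 alone was higher, at 47.6 against 35.9 CPM. Left exceeded right in 4 of 5 mice for P2ry12, P2ry13 and Sall1 and in 3 of 5 for Aif1, Fcrls, Gpr34 and Siglech, and in 2 of 5 for Olfml3 and Tmem119. In unbound RNA P2ry13 was lower on the left in 5 of 5 mice, the most negative log2 difference being -0.44. Border macrophage markers spanned 10.7 to 133.5 CPM in control and 26.1 to 85.0 CPM in deprived bound libraries. Without mouse 7 still none of the 9 genes was called.

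The direct test of whether the deprivation effect differed between the genotypes called none of the 9 genes in bound RNA, where 0.51% of 19601 genes were called, and none had an unadjusted p under 0.05. For Aif1 the difference of the log2 folds, knockout minus heterozygous, was -0.84 ± 0.46 (edgeR adjusted p = 0.35), or -0.15 with heterozygous groups set by side. In unbound RNA 2 of the 9, Tmem119 and Aif1, had an unadjusted p under 0.05, and the most negative difference was that of Tmem119, at -1.04 ± 0.48 (edgeR adjusted p = 0.26), where 1.79% of 19278 genes were called. A rise in 1 genotype and none in the other is thus not shown to be a difference between genotypes.

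In the astrocyte line deprivation changed no gene, in the set or outside it, by edgeR: 0% of the 17685 genes tested in bound RNA and 0% of the 16846 in unbound RNA were called, while 1067 and 1043 had an unadjusted p under 0.05. DESeq2 called 8 genes in bound RNA, none of them in the set. P2ry12 nonetheless had 3.46, 4.43, 3.96, 3.25 and 4.19 CPM in control and 1.69, 2.17, 3.17, 2.67 and 2.45 CPM in deprived bound libraries. Every deprived library was below every control library, and the log2 fold was -0.69 ± 0.21 (SE, edgeR adjusted p = 0.69), the one member with an unadjusted p under 0.05 (0.0041). Siglech had 1.77 to 2.37 CPM in control and 0.523 to 1.76 CPM in deprived bound libraries, also without overlap, and a log2 fold of -0.58 ± 0.31. These were 2 of 9 genes, where 0.424% of all genes had every deprived library lower. In unbound RNA of the same line both genes' groups overlapped, with log2 folds of -0.14 ± 0.12 for P2ry12 and 0.13 ± 0.18 for Siglech. The summed level of the other microglia genes in bound RNA was 86.9 to 104 CPM in control and 85.2 to 104 CPM in deprived libraries.

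Knockout against heterozygous bound RNA, averaged over deprived and control cortex, gave 9 values below 0 and no call, where 0.0204% of 19601 genes were called higher and 0.0357% lower. Values ran from -0.12 ± 0.19 for Fcrls to -0.56 ± 0.22 for Olfml3 on the log2 scale, and 3 genes, Olfml3, P2ry13 and Sall1, had an unadjusted p under 0.05. Genotype differs between mice, but both cortices of a mouse entered this test as separate libraries. The errors and p-values thus do not measure the spread between mice. Sall1 had the smallest p, with a log2 fold of -0.32 ± 0.09 (edgeR adjusted p = 0.27) and 47.1 to 64.1 CPM in heterozygous against 35.1 to 55.4 CPM in knockout libraries. It was called when genes of low count were kept (edgeR adjusted p = 0.0397). The median of the 9 was -0.32, that of the other microglia genes -0.30 and that of all genes 0.01. DESeq2 called none of the 9. Without mouse 7 the value was -0.04 for P2ry12, 0.02 for Fcrls and -0.37 for Olfml3, again with no call, as without 17R and 21L.

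In unbound RNA the same contrast ran from -0.70 ± 0.36 for Siglech to 0.06 ± 0.18 for Fcrls, with no call, where 0.0207% of 19278 genes were higher and 0.0467% lower. Aif1, at -0.32 ± 0.11, and P2ry13, at -0.38 ± 0.14, had an unadjusted p under 0.05. The enrichment on ribosomes did not pass a test of difference between the genotypes for any of the 9 genes, from -0.32 ± 0.30 for Olfml3 to 0.43 ± 0.58 for Siglech, where 0% of 20676 genes were called. The genotypes share no mouse, and each was counted in its own table. Here too both cortices of a mouse entered as separate libraries.

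Siglech varied between mice more than any other gene of the set. In bound RNA of the heterozygous line it had 6.47 and 10.1 CPM in the right and left cortex of mouse 14, 3.44 and 4.67 in mouse 15, 3.81 and 5.10 in mouse 17, and 0.638 and 0.405 in mouse 21. The values of mouse 21 rest on 28 and 18 counts. Both cortices of a mouse were alike, and mouse 21 was low in unbound RNA as well, at 0.205 and 0.25 CPM. Among knockout mice the bound level ran from 1.84 and 1.99 CPM in mouse 22 to 5.05 and 6.72 CPM in mouse 19. Relative to the other microglia genes of the same library, on a log2 scale, the means of the 9 mice had an SD of 0.835 for Siglech in bound RNA and of 0.16 to 0.34 for the other 8 genes. The mean difference between the 2 cortices of a mouse was 0.23 for Siglech and 0.17 to 0.34 for the other 8 genes. In unbound RNA that SD was 0.42 for Siglech and 0.17 to 0.30 for the others. A constant was added to the CPM before these logs, larger than in the deprivation ratios, and it shrinks differences at low CPM. In bound RNA this touches Siglech in mouse 21, whose left over right log2 ratio of CPM without the constant was -0.66. Unbound Siglech means ran from 0.2037 CPM in knockout mouse 22 to 1.501 CPM in heterozygous mouse 14, yet spanned only 1.321 on this log2 scale. The unbound SDs thus understate the spread of genes at low CPM, Siglech among them, and cannot be set against the bound ones. No test was made of this spread, and strain background and litter of the mice are not given in the sources used here.

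**Figure D4:**
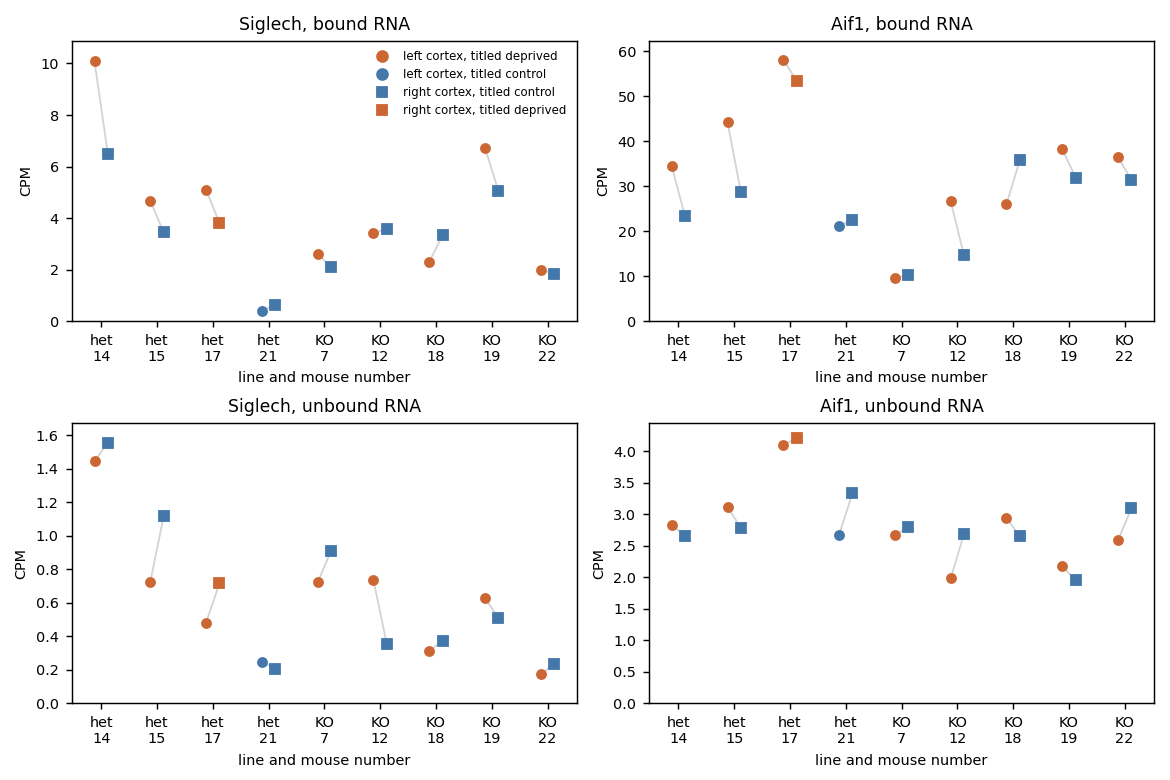
CPM (linear axis from 0) of Siglech and Aif1 in bound and unbound RNA for each mouse of the 2 microglial lines, with left cortex as circles, right cortex as squares, colour for the title (orange deprived, blue control) and a grey line joining the cortices of a mouse. Siglech in mouse 21 lies below 0.64 CPM in bound RNA on both sides, and Aif1 in bound RNA is highest in both cortices of mouse 17.

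Across all 56 libraries genes whose log2 CPM most resembled the mean of the 9, out of 13181 with a mean of at least 1 CPM, included Csf1r (Pearson r = 0.989), Cd33 (0.978), Mpeg1 (0.976) and Hpgds (0.975). That likeness contains the contrast of bound and unbound RNA. With group means removed, over the 18 bound microglial libraries, the closest of 12997 genes were Ly86 (r = 0.982), Cd68 (0.966), Evi2a (0.957), Cd33 (0.955) and C1qc (0.955). Within the set, each gene was compared in the same way with the mean of the other 8. Olfml3 (r = 0.96), P2ry12 (0.95), Gpr34 (0.90) and Aif1 (0.83) followed the rest closely, Fcrls (0.79) and P2ry13 (0.78) less so, and Tmem119 (0.62), Sall1 (0.60) and Siglech (0.31) least. These correlations are descriptions over libraries that share mice, so no p is given.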

How the data were processed

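TRAP RNA from mouse barrel cortex was sequenced in 56 libraries. The authors deposited raw counts per gene in 3 tables, 1 for each line, and the submitters' processing notes name GRCm38, featureCounts 2.0.0 and HISAT2 2.2.0, besides FastQC 0.11.9 and trimming with cutadapt 2.9 under Trim Galore 0.6.4. The strand setting and the annotation are not given in the sources used here. Columns were mapped to samples through the titles and library names, and no column was left unmapped.

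The deposited counts were normalised by TMM and tested with edgeR 4.0.16 (R 4.3.3, limma 3.58.1) by the quasi-likelihood F test, after edgeR's filter on low counts, with Benjamini-Hochberg adjustment over all genes tested and a threshold of 0.05. Deprivation was tested in each line and fraction, enrichment in each line over its 4 groups, and genotype over the 45681 genes in both microglial tables. CPM are on TMM library sizes. The scripts were tested on simulated data. P-values measure the spread between libraries, and 2 cortices of 1 mouse are not independent animals.

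The 9 genes and the lists of other cell types were chosen with earlier results of these data known. All 9 genes entered every comparison and are described singly or by their range and count. From the lists of other microglia, purine-sensing and Sall and Siglec genes, up to 4 called genes of smallest p were named in a comparison, with Cx3cr1, the tag transcript, genes overlapping the 9, and the 5 genes most correlated with their mean, of which 1 is not reported here. Border macrophage genes were named after their values were seen.

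In the knockout line the numbers are mice, and both cortices of a mouse deviated together from the group means (r = 0.149 to 0.532 in bound and 0.214 to 0.566 in unbound RNA). In the heterozygous line mice 14 and 15 pair a deprived with a control cortex (r = 0.387 and 0.32 in bound RNA), and mice 17 and 21 do not. Bound and unbound RNA of a piece of cortex are paired by mouse and side in the microglial lines. In the astrocyte line they were matched by title and number only, which name no animal. Alternatives were DESeq2's size factors, no filter on low counts, the DESeq2 1.42.0 Wald test, leaving out each library, blocks, and other groupings of the heterozygous libraries.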

Additional observations from a re-analysis of the deposited data

Results flagged for a closer look

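In 108 groups of 4 or 5 libraries (9 genes, 12 groups), 3 single libraries lay far from the rest of their group, and chance flags about 1 group in 20. P2ry13 had 0.329 CPM in the fourth control bound library of the astrocyte line, with the other 4 at 1.49 to 1.89 CPM. Gpr34 had 2.62 CPM in the fifth deprived bound library of that line, with the others at 1.29 to 1.67 CPM. Tmem119 had 8.18 CPM in 17L, deprived bound RNA of the heterozygous line, with the others at 5.71 to 5.96 CPM. Without 17L its log2 fold with deprivation was 0.47 (edgeR adjusted p = 0.12) in place of 0.61.

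The ratio of bound to unbound RNA went in opposite directions in the lines for 3 receptor genes. Its median over the 10 astrocyte-line pieces was 0.391 for P2ry12, 0.598 for P2ry13 and 0.72 for Siglech, with every piece below 1, whereas every piece of both microglial lines was above 1. The difference between the lines was not tested.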

How the results depend on the processing

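The number of the 9 genes called with deprivation in heterozygous bound RNA, 3 by title, was 6 with no filter on low counts, 4 by DESeq2 and 2 with DESeq2's size factors in edgeR, where P2ry12 was lost (edgeR adjusted p = 0.0502). It was 0 with groups by side of the cortex, with or without a replicate block by mouse. It was 1, Aif1, without 17R and 21L and in mice 14 and 15 alone with a replicate block by mouse. Among settings chosen after seeing the data it was 1 with the libraries of mice 17 and 21 summed, 1 without mouse 21 and 1 without mouse 17. With 1 library left out it ran from 1 to 5. The log2 fold of Sall1 there turned from 0.01 to -0.10 by side (-0.10 with the block), -0.055 without 17R and 21L, -0.20 in mice 14 and 15, -0.059 with summed libraries, -0.14 without mouse 21 and -0.055 without mouse 17, and ran from -0.054 to 0.10 with 1 library left out. Over all genes the 1850 calls in bound RNA became 2642 with no filter on low counts and 2711 by DESeq2. They became 1896 with DESeq2's size factors in edgeR and 2202 with title number as a block. In mice 14 and 15 alone with a replicate block by mouse they were 1270. They fell to 0 by side, 741 without 17R and 21L, 951 with summed libraries, 468 without mouse 21 and 773 without mouse 17. In unbound RNA 678 became 294 without 17R and 21L and 0 by side, and the tests of a deprivation effect that differs by genotype went from 100 to 5 and 2 in bound and from 345 to 66 and 2 in unbound RNA. The genotype contrast in bound RNA went from 11 to 7 without 17R and 21L. Leaving these libraries out, chosen after seeing the data outside the deprivation contrasts, changed no call among the 9 in the enrichment, fraction and genotype comparisons. Those fits held no block. In unbound RNA leaving out 1 library gave 0 or 1 call among the 9. The difference of the deprivation effect between fractions gave 1 call, Aif1, with no filter and 1 with a replicate block by piece. The genotype contrast in bound RNA gave 1 call, Sall1, with no filter, Fcrls turned to 0.023 without mouse 7, and Siglech ran from -0.49 to 0.16 with 1 library left out. The cause of these changes was not tested.

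As a replicate block, the title number of the astrocyte line names no animal (r of deviations -0.0399 to 0.353 in bound RNA); it gave 0 calls among the 9 genes in either fraction, as did the block by mouse in the knockout line, and apart from the changes named here blocks changed no call among the 9. The count of calls over all genes in the knockout line went from 1 to 2 in bound and from 7 to 3 in unbound RNA with that block. Leave-one-out fits were not run for the difference of enrichment between genotypes.

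Mean CPM with raw library totals, then with totals without mitochondrial rRNA, moved by more than the SD between libraries for Sall1 in the astrocyte line (bound 53.3 and 54.3, unbound 20.9 and 21.9), in heterozygous unbound (15.7 and 20.8) and knockout unbound RNA (14.2 and 19.4). In astrocyte-line unbound RNA they moved for P2ry12 (10.1 and 10.6), Fcrls (6.49 and 6.82), Olfml3 (2.74 and 2.88) and Aif1 (1.23 and 1.29), and for Siglech with the second (3.45). Aif1 in knockout unbound RNA moved with the first (2.14). Depth limits Tmem119 in the astrocyte line and Siglech in mouse 21, where libraries held few or no counts.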
